A study of Mus musculus with 6 samples.

Results

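Genes of axon guidance, 10 in all, were followed through single-cell RNA-seq of the mouse main olfactory epithelium. They are the semaphorin receptors *Nrp1*, *Nrp2*, *Plxna1* and *Plxna3*, the semaphorins *Sema3a* and *Sema3f*, the Slit receptors *Robo1* and *Robo2*, and the Slits *Slit1* and *Slit2*, 10 of the 24564 genes in the files. They were chosen by name, and their levels were read in immature olfactory sensory neurons (OSNs), in mature OSNs, in OSNs with and without *Nqo1*, and in the other cells of the tissue. *Nqo1* encodes a quinone reductase of OSNs in the dorsal part of the epithelium.

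Each of the 6 libraries was made from papain-dissociated tissue. The 2 swap libraries are labelled as homozygous for the Cbx swap allele with a Cre driver that is active in neuronal lineages. In this allele, Cre makes the *Cbx1* promoter, which drives the heterochromatin protein HP1β, express the HP1α gene *Cbx5* instead, and the study describes the swap mice as runts. Of the 2 control libraries, replicate 1 is labelled wild type with the same Cre, and replicate 2 is labelled as carrying the Cbx allele without Cre, so neither control shares both elements with the swap mice. A library labelled gg8-tTA (gg8tTA) carries a tetracycline transactivator expressed in OSNs. A library labelled gg8-tTA; tetOP2iresGFP (tetOP2) has in addition a transgene that the transactivator uses to express the olfactory receptor (OR) P2, listed in the files as *Olfr17*. The labels give neither ages nor the number of mice per library, so the p-values below rest on libraries and not on mice. Between genotypes they measure the spread between libraries. Between classes of cells within libraries they measure how the within-library difference varies from library to library.

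OSN axons leave the epithelium for the olfactory bulb, where axons of neurons that chose the same OR converge on shared glomeruli. Neuropilins bind class 3 semaphorins and plexins carry the signal into the growth cone, while Robo receptors respond to Slits. Along the dorsoventral axis of the bulb, *Nrp2* with *Sema3f* and *Robo2* with *Slit1* are known to sort axons by the position of the neuron in the epithelium. Along the anteroposterior axis, *Nrp1* and *Sema3a* are known to vary with the chosen OR, through the cyclic AMP signal that the OR sets.

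*Nrp2* and *Robo2* are the genes on which the comparison by *Nqo1* turns, so the bases before their starts are shown first, from RefSeq on GRCm38.p6, 5′ to 3′ on the strand of the gene. Capitals mark an E-box (CANNTG), and only bases before the start of the gene in the GENCODE annotation are printed, 218 for *Nrp2* (chr1:62703067-62703284, plus strand) and 250 for *Robo2* (chr16:74411826-74412075, minus strand).
Nrp2: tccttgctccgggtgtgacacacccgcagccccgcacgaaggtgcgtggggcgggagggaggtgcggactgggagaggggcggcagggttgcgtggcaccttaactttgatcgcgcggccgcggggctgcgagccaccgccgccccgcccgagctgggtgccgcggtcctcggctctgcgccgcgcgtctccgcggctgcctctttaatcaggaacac
Robo2: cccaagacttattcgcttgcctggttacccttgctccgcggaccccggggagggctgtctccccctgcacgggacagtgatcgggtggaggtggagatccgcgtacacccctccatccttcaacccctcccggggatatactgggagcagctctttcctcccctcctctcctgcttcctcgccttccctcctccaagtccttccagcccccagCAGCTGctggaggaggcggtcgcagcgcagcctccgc
The 250 bases upstream of the RefSeq start of *Nrp2* held 32 CpG dinucleotides and those of *Robo2* 14, beside a median of 6 over the 32851 windows of this length in the table. An E-box was present in 66.2% of those windows on either strand, in that of *Robo2* and not in that of *Nrp2*. RefSeq gives *Robo2* 2 more starts farther upstream, whose windows held 4 and 8 CpG and 1 E-box each. The homeodomain core TAATTA, the other motif searched, was absent from both windows on either strand and present in 4.84% of all windows. *Robo1* and *Robo2* are neighbours on chromosome 16 (chr16:72308306-73046095 and chr16:73891839-74411825 on GRCm38 in GENCODE vM21), *Nrp1* lies at chr8:128358604-128503363, *Nrp2* at chr1:62703285-62818695, *Plxna1* at chr6:89316314-89362620 and *Plxna3* at chrX:74329066-74344689.

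The libraries held 32005196 to 63277934 UMIs (unique molecular identifiers, 1 per counted RNA molecule). Cells with at least 1000 UMIs and 500 genes that were not predicted doublets were kept, 23955 in all and 2510 to 4884 per library, with medians of 9991 to 11543 UMIs before the doublets were removed. Control replicate 2 kept the lowest share of its barcodes, 57.5%. No pair of libraries shared more than 13 barcodes. The targeted genes followed the labels: in mature OSNs *Cbx1* was at 1.56 and 2.90 counts per 1000000 UMIs (CPM) in swap against 80.04 and 140 in control, and *Cbx5* at 85.8 and 103 against 20.4 and 44.8.

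Immature OSNs were cells with at least 5 UMIs of the growth cone gene *Gap43* and more *Gap43* than *Omp* UMIs (3242 cells, 329 to 834 per library). Mature OSNs were cells with at least 10 UMIs of the maturity marker *Omp* and more *Omp* than *Gap43* UMIs (5572 cells, 683 to 1326 per library). Of the mature OSNs, 89.3% lay in clusters that express the mature OSN markers, 192 cells (3.45%) in sustentacular-like clusters and 271 in unnamed ones, while 72.5% of the immature OSNs lay in immature OSN-like clusters and 21.2% in unnamed ones. The *Omp* minimum met unlike levels, since *Omp* in mature OSNs was at 8039 (gg8tTA) and 8582 CPM (tetOP2) against 2370 to 3515 in swap and control. From 3 *Omp* UMIs, 1004 cells of gg8tTA and 894 of tetOP2 passed the mature gate instead of 683 and 684. Mature OSN-like clusters held only 632 and 649 cells in these libraries. In the 2 controls 1173 and 1454 cells passed instead of 1082 and 1326. Whether the cells added by this lower minimum are OSNs was not tested, and alternatives with *Omp* from 3 UMIs include them. Values below are CPM of the UMIs summed over the cells of a class in a library, and the 6 libraries were compared with edgeR's quasi-likelihood test. Calls required a Benjamini-Hochberg adjusted p under 0.05 over all tested genes together with a log2 fold change larger than 0.58 in either direction.

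*Nrp1* and *Sema3a* fell from immature to mature OSNs, and *Plxna3* rose. They were the 3 of the 10 genes that were called, where 34.9% of the 12677 genes tested were called, 17.3% higher and 17.6% lower in mature OSNs, so the share called among the 10 was close to the background. *Nrp1* stood at 132 to 229 CPM in immature OSNs (median 198.1) and at 38.3 to 102 in mature OSNs (median 88.9), with no overlap between the stages. The lowest mature value was that of the tetOP2 library, and the next was 76.7. *Nrp1* was 1.98 to 3.46 times higher in immature OSNs within each of the 6 libraries (log2 fold change −1.15, SE 0.10, adjusted p = 1.59e-05 by edgeR). Its ligand *Sema3a* was at 8.33 to 25.1 CPM in immature and 3.24 to 10.5 in mature OSNs (means 16.2 ± 6.86 and 6.87 ± 3.27, SD, n = 6). These ranges overlapped between libraries, while within each library *Sema3a* was 1.90 to 4.27 times higher in immature OSNs (log2 fold change −1.17, SE 0.16, adjusted p = 0.000303 by edgeR).

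*Plxna3*, which encodes a co-receptor of the neuropilins, moved the other way, from 15 to 22.8 CPM in immature OSNs (mean 19.3 ± 2.69, SD, n = 6) to 39.7 to 48.7 in mature OSNs (45.7 ± 3.55). The stages did not overlap, and the ratio within libraries was 2.09 to 3.17 (log2 fold change 1.34, SE 0.08, adjusted p = 2.68e-06 by edgeR). *Plxna1*, the other neuropilin co-receptor, was at 50.2 to 76.2 CPM in immature and 64.4 to 100.2 in mature OSNs, a difference of 0.57 (SE 0.11, adjusted p = 0.0018) that lay just under the size threshold. *Plxna1* was called in 6 of 15 alternatives, namely by DESeq2 (0.61), with no filter on low counts (0.61), with control and gg8tTA only (0.79), without swap replicate 1 (0.69), without swap replicate 2 (0.60) and without control replicate 1 (0.59).

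The remaining members were not called between stages. *Nrp2*, the receptor of *Sema3f*, differed by −0.41 (SE 0.09, adjusted p = 0.00406), below the size threshold, with 70.1 to 152 CPM in immature and 61.1 to 94.0 in mature OSNs. *Slit2*, a Robo ligand, differed by −0.57 (SE 0.20, adjusted p = 0.0326) and was called in 4 of 15 alternatives, namely scaled by library size (−0.67), without control replicate 2 (−0.67), without the gg8tTA library (−0.68) and inside OSN-like clusters (−0.99). *Robo2* (0.15), *Robo1* (0.13), *Slit1* (0.25) and *Sema3f* (0.23) had adjusted p from 0.0764 to 0.27. *Robo2* at the 2 stages ranged over 32.2 to 129 and 43.8 to 107 CPM, a wider range between libraries than between stages. Its ratio of mature to immature OSNs was 1.44 in gg8tTA and 1.36 in tetOP2, against 0.83 to 1.01 in the swap and control libraries. The summed level of 6 sustentacular markers, none of them at 0, was 273 to 2855 CPM in immature and 123 to 4039 CPM in mature OSNs, and inside OSN-like clusters the log2 fold changes were −1.32 for *Nrp1*, −1.50 for *Sema3a* and 1.28 for *Plxna3*, all called.

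**Figure D1:**
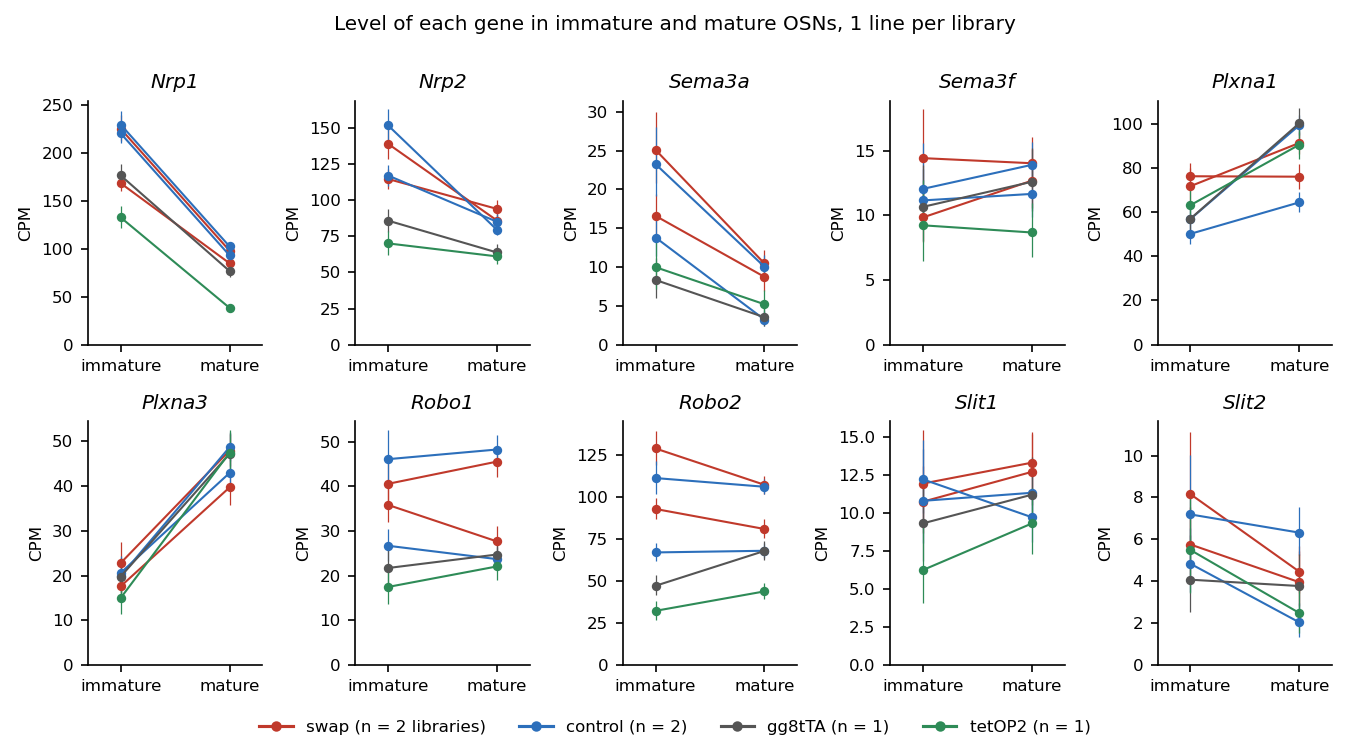
CPM of each of the 10 genes (y axis, linear from 0) in immature and mature OSNs (x axis), 1 line per library, with exact Poisson 95% intervals as bars and colors for swap (n = 2), control (n = 2), gg8tTA and tetOP2 (n = 1 each). All 6 lines fall for *Nrp1* and *Sema3a* and rise for *Plxna3*, while those of *Robo1* and *Robo2* run in both directions.

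The levels moved in graded steps when OSNs were binned by the share of *Omp* in the sum of *Omp* and *Gap43* UMIs, over OSNs with at least 10 of both together. From the bin of 0 to 5% to that of 95 to 100%, mean *Nrp1* was 202, 220, 155, 106, 77.7 and 78.1 CPM over the 6 libraries. *Plxna3* was 18.1, 22.9, 27.2, 35.3, 39.2 and 49.2 CPM over the same 6 bins, and *Sema3a* 17.5, 14.2, 14.0, 8.72, 8.41 and 5.92. *Nrp2* stayed between 95.7 and 109 CPM in the first 5 bins and was at 65.7 in the last. At the edges of the gates, *Nrp1* was at 51.3 CPM in cells with 8 or 9 *Omp* UMIs and 54.2 in cells with 10 or 11, and at 134 CPM in cells with 4 *Gap43* UMIs and 148 in cells with 5. Not every member was level across the *Omp* edge, between 78 and 71 cells. There *Robo2* was at 43.3 CPM (exact Poisson 95% interval 30.7 to 59.5) below and 116 (89.0 to 148) above. *Robo1* was at 43.3 (30.7 to 59.5) and 14.4 (6.24 to 28.5), while the intervals of the other members overlapped. Cells at these edges were pooled over libraries, so the intervals leave out differences between libraries. Whether the mix of libraries differed across the edge was not tested.

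*Nqo1* separated the OSNs by *Nrp2* and *Robo2* in opposite directions at both stages. Cells with at least 2 *Nqo1* UMIs (2000 mature and 521 immature OSNs) were set against cells with none (3319 and 2416), with both classes summed within each library. In mature OSNs *Nrp2* was at 6.37 to 21.7 CPM (median 17.7) in *Nqo1*-positive cells and at 81.0 to 151 (median 116.7) in *Nqo1*-zero cells. The classes did not overlap, and *Nrp2* was 5.49 to 12.7 times higher in the *Nqo1*-zero cells of each of the 6 libraries (log2 fold change −2.79, SE 0.10, adjusted p = 7.47e-08 by edgeR). *Robo2* was at 66.2 to 157 CPM in *Nqo1*-positive and 35.9 to 84.7 in *Nqo1*-zero mature OSNs, with medians of 105.9 and 58.9. The ranges overlapped between libraries, but within each library *Robo2* was 1.63 to 2.28 times higher in *Nqo1*-positive cells (log2 fold change 0.89, SE 0.07, adjusted p = 3.28e-05 by edgeR).

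In immature OSNs *Nrp2* was at 12.1 to 31.5 CPM in *Nqo1*-positive and 81.1 to 191 in *Nqo1*-zero cells, a ratio within libraries of 4.78 to 9.18 (log2 fold change −2.56, SE 0.13, adjusted p = 3.12e-07). *Robo2* was at 48.5 to 172 and 26.1 to 123 CPM, a ratio of 1.40 to 1.86 (log2 fold change 0.65, SE 0.08, adjusted p = 0.000125). Among mature OSNs 5.34% of the 11408 genes tested were called, 3.17% higher and 2.17% lower in *Nqo1*-positive cells, and among immature OSNs 5.99% of 10368, 3.31% higher and 2.68% lower. Of the 10 genes, 3 were called in mature and 2 in immature OSNs.

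*Sema3a* was the third called gene in mature OSNs, higher in *Nqo1*-positive cells at 4.21 to 12.5 CPM against 2.71 to 8.30 in *Nqo1*-zero cells (log2 fold change 0.62, SE 0.15, adjusted p = 0.0226). The call was lost in 8 of 17 alternatives. Among them were leaving out swap replicate 1 (0.52, adjusted p = 0.0806), swap replicate 2 (0.64, 0.063), control replicate 1 (0.61, 0.0548) or control replicate 2 (0.63, 0.0812), and control and gg8tTA alone (0.63, 0.193), by edgeR in each case. The others were DESeq2 (0.62, adjusted p = 0.0607), doublets kept (0.54, under the size threshold) and *Omp* from 3 UMIs (0.27, adjusted p = 0.674 by edgeR). In immature OSNs *Sema3a* differed by 0.51 (adjusted p = 0.0887), and by 0.85 (adjusted p = 0.00106) in immature OSNs inside OSN-like clusters.

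*Slit1*, the ligand of *Robo2* in this system, was on the *Nqo1*-zero side of mature OSNs by 0.56 (SE 0.11, adjusted p = 0.00762), just under the size threshold, with 7.35 to 10.2 CPM in *Nqo1*-positive and 9.55 to 16.6 in *Nqo1*-zero cells. It was called without control replicate 1 (−0.60), without the tetOP2 library (−0.59) and with swap and control only (−0.58). *Nrp1* (−0.29, adjusted p = 0.0222) and *Plxna3* (−0.25, adjusted p = 0.0376) differed by less than the size threshold. *Plxna1* (0.16), *Sema3f* (0.34), *Slit2* (−0.29) and *Robo1* (−0.09) had adjusted p of 0.0534, 0.0575, 0.366 and 0.643 by edgeR. *Sema3f*, whose receptor *Nrp2* showed the widest separation of the 10, thus did not pass the test.

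Some sustentacular RNA moved with the *Nqo1* classes. The summed sustentacular markers were at 148 to 5920 CPM in *Nqo1*-positive and 62.9 to 2765 CPM in *Nqo1*-zero mature OSNs, higher in *Nqo1*-positive cells in 5 of 6 libraries. Among mature OSNs inside OSN-like clusters the log2 fold changes were −2.76 for *Nrp2*, 0.94 for *Robo2* and 0.67 for *Sema3a*, all called, and among immature OSNs inside such clusters −2.65 for *Nrp2* and 0.82 for *Robo2*, both called.

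The levels were then read by the number of *Nqo1* UMIs in a cell. In mature OSNs *Nrp2* was at 117 CPM in cells with none, 75.3 with 1, 39.2 with 2 or 3, 21.6 with 4 to 7, 18.5 with 8 to 15 and 13.9 with 16 or more, summed over the 6 libraries. *Robo2* over the same bins was 63.9, 75.3, 74.5, 90.2, 109 and 136 CPM. In immature OSNs *Nrp2* was at 143 CPM with none, 57.9 with 1 and between 22.8 and 29.2 in every bin above. The edge of the *Nqo1* class lay on this slope, with *Nrp2* at 75.3 CPM in the 253 mature OSNs with 1 *Nqo1* UMI and 39.4 in the 88 with 2, and *Robo2* at 75.3 and 71.1. *Nrp1* in immature OSNs was 201, 210 and 225 CPM in the first 3 bins and 142, 119 and 46.4 in the last 3. When *Nqo1*-positive immature OSNs were taken from 4 UMIs up, *Nrp1* was called (−0.85), and from 1 UMI up *Robo2* was not (0.53). The *Nqo1* classes of immature OSNs also differed in maturity. Summed mature OSN markers were at 1438 to 2081 CPM in *Nqo1*-positive and 989 to 1403 in *Nqo1*-zero immature OSNs. Summed markers of immediate neuronal precursors were at 1477 to 2508 and 2397 to 3808 CPM. How much of the *Nrp1* difference goes with maturity was not tested.

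**Figure D2:**
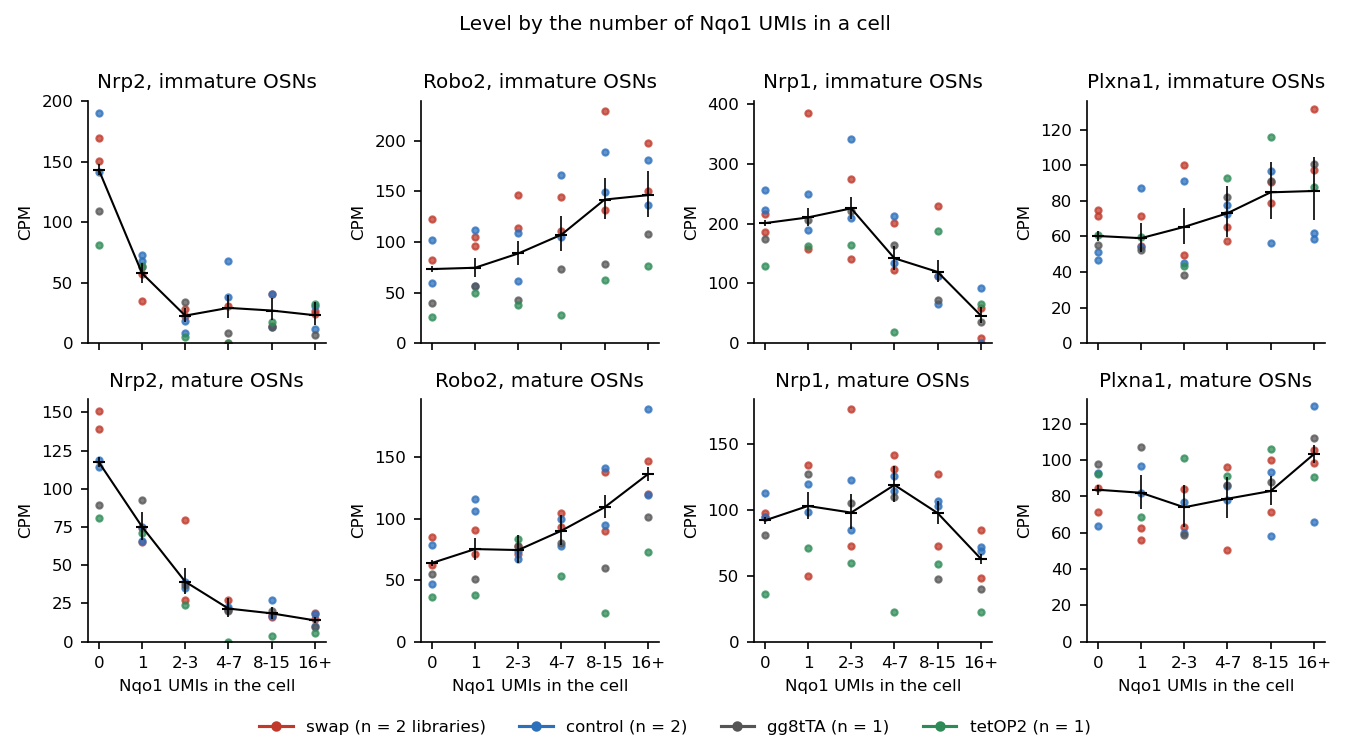
CPM of *Nrp2*, *Robo2*, *Nrp1* and *Plxna1* (y axis, linear from 0) by the number of *Nqo1* UMIs in the cell (x axis, 6 bins), for immature (top) and mature OSNs (bottom). Points are libraries, and black lines are the sum of 6 libraries with exact Poisson 95% intervals; *Nrp2* in mature OSNs descends from 117 to 13.9 CPM and *Robo2* ascends from 63.9 to 136.

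The same UMIs were also read as shares of cells, pooled over the 6 libraries, in *Nqo1* classes set before thinning. The intervals of these shares cover counting error only and leave out differences between libraries. With each cell thinned to 3000 UMIs, 4.82% of *Nqo1*-positive mature OSNs had an *Nrp2* UMI (exact 95% interval 3.92 to 5.85%) against 25.6% of *Nqo1*-zero ones (24.1 to 27.1%), and 30.8% against 16.4% had a *Robo2* UMI. Without thinning the shares were 14.5% and 58.8% for *Nrp2* and 69.2% and 47.0% for *Robo2*. In B lineage-like cells, which should express neither, 0.259% had a UMI of each after thinning (773 of 1402 cells were deep enough, with a median of 4640 UMIs, beside 11770 and 12597 in the 2 mature classes). Between 0 and 13 cells per library and stage of the OSNs were too shallow to be thinned.

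*Nrp1* differed widely between mature OSNs of different chosen ORs, the OR with the most UMIs in a cell. Among swap and control mature OSNs, 66 ORs were the chosen OR of at least 10 cells, 3 or more of each genotype (952 cells, 10 to 34 per OR). *Nrp1* ran from 0 to 386 CPM over these ORs, with a median of 55.2, 13 ORs at 0 and 26 above 100. Its variance over ORs was 22.8 times that of Poisson counts, compared with 14.7 for *Nrp2*, 10.2 for *Plxna1*, 5.34 for *Robo2*, 3.29 for *Plxna3*, 2.37 for *Sema3a* and 1.18 to 1.70 for *Sema3f*, *Robo1*, *Slit1* and *Slit2*. For the same relative spread this ratio grows with the counts, so it does not rank genes with few UMIs against the others.

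The OR levels recurred in the other genotype, whose cells come from other libraries. Over the 66 ORs, *Nrp1* in swap and in control cells had a Spearman rho of 0.84, *Nrp2* 0.79, *Plxna1* and *Robo2* 0.72 each and *Plxna3* 0.47. *Sema3a* had a rho of −0.004 and *Slit1* of −0.17 over the same ORs. With at least 3 UMIs of the chosen OR required, 63 ORs and 901 cells remained, and *Nrp1* had a rho of 0.85. These are correlations over ORs that share libraries and depth, given as descriptions. *Sema3a* counts were sparse, with 0 to 3 UMIs over the cells of each OR named below.

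*Olfr309* had the highest *Nrp1*, 386 CPM in 17 cells (357 in swap, 418 in control), followed by *Olfr211* with 318 in 11 cells (295 and 345) and *Olfr15* with 301 in 21 cells (208 and 424). At the other end stood *Olfr1271*, *Olfr1330* and *Olfr235*, the first 3 by name of the 13 ORs without an *Nrp1* UMI, in 13, 11 and 12 cells. A count of 0 allows up to 19.8, 24.6 and 20.6 CPM for them. *Plxna1* ran opposite to *Nrp1*, at 15.9, 16.4 and 21.7 CPM in cells of the 3 ORs with the highest *Nrp1* and at 191, 115 and 179 in the 3 without.

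Over all 66 ORs, *Nrp1* and *Plxna1* had a Spearman rho of −0.79, *Nrp1* and *Plxna3* 0.58, *Nrp1* and *Robo2* −0.51, *Plxna1* and *Robo2* 0.62, *Plxna1* and *Plxna3* −0.60 and *Nrp2* and *Robo2* −0.40. With the share of *Nqo1*-positive cells of an OR, *Nrp2* had a rho of −0.75, *Robo2* of 0.50 and *Nrp1* of −0.16. To read the pattern in cells that did not set the order, the ORs were ranked by *Nrp1* in swap cells, divided into 4 groups of 16 or 17 ORs and read in control cells. *Nrp1* was 14.2, 27.2, 133 and 254 CPM in the control cells of the 4 groups from low to high, *Plxna1* 161, 165, 75.3 and 39.1, *Plxna3* 27.6, 32.7, 42.3 and 69.2, and *Robo2* 105, 123, 99.8 and 65.3. *Plxna1* was thus lower, and *Plxna3* higher, in the 2 groups with the most *Nrp1*.

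*Nrp1* and *Plxna1* also stood apart when cells were not grouped by OR. Of mature OSNs thinned to 3000 UMIs, 12.3% of those with an *Nrp1* UMI had a *Plxna1* UMI against 24.3% of those without (9.86 to 16% against 19.3 to 27.8% over libraries, lower in 6 of 6). In immature OSNs the shares were 7.95% and 19.6%.

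**Figure D3:**
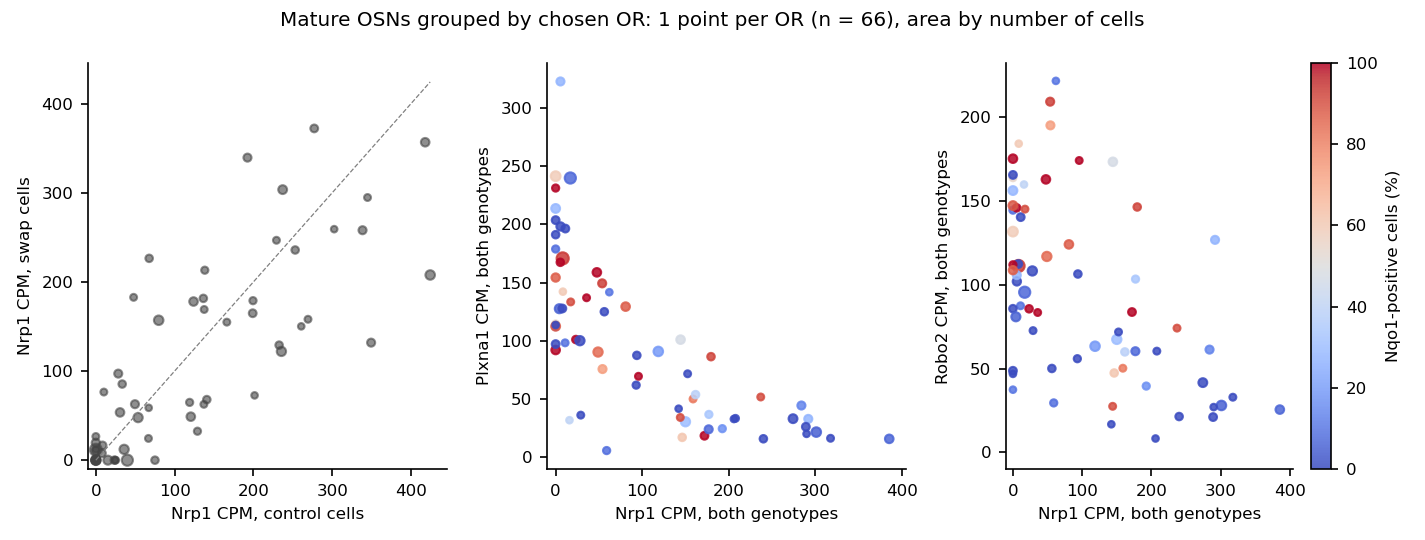
Mature OSNs of swap and control libraries grouped by chosen OR, 1 point per OR (n = 66), all axes in CPM and linear. Left, *Nrp1* in swap against control cells, with the line of equality; middle and right, *Plxna1* and *Robo2* against *Nrp1* with the share of *Nqo1*-positive cells as color, where *Plxna1* falls as *Nrp1* rises (rho −0.79).

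The tetOP2 library shows the members where most neurons express 1 OR. In 390 of its mature OSNs the chosen OR was *Olfr17*, and there *Nrp1* was at 12.7 CPM (exact Poisson 95% interval 9.57 to 16.4) against 72.7 (63.9 to 82.3) in its 278 mature OSNs with another OR and 81.9 in the 626 of the gg8tTA library. *Robo2* was at 35.0 (29.7 to 41) against 56.3 CPM (48.6 to 64.8) in the tetOP2 library, and *Plxna1* at 102 (92.6 to 112) against 76.5 (67.5 to 86.4). *Nrp2* was 57.9 against 59.8 CPM and *Plxna3* 47.9 against 46.3, with overlapping intervals. The 626 cells of the gg8tTA library had *Robo2* at 69.9 CPM (64.1 to 76.1) and *Plxna1* at 104 (96.6 to 111). For *Plxna1* the *Olfr17* cells thus matched the gg8tTA cells, and the tetOP2 cells with another OR were the lower group. In the *Olfr17* cells *Nrp2* still differed with *Nqo1*, at 7.23 CPM in *Nqo1*-positive and 76.2 in *Nqo1*-zero cells. The 12 *Olfr17* cells of the swap and control libraries had *Nrp1* at 7.72 CPM (0.195 to 43.0, from 1 UMI) and *Plxna1* at 100.4. *Robo2* in these 12 cells was at 69.5 CPM (31.8 to 132), close to the gg8tTA value. That interval also overlapped the one of the tetOP2 *Olfr17* cells. With 1 library of each kind these values have no test, and the intervals cover counting error only. The chosen OR had no minimum of UMIs here, and whether stray *Olfr17* RNA assigned some cells was not tested.

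**Figure D4:**
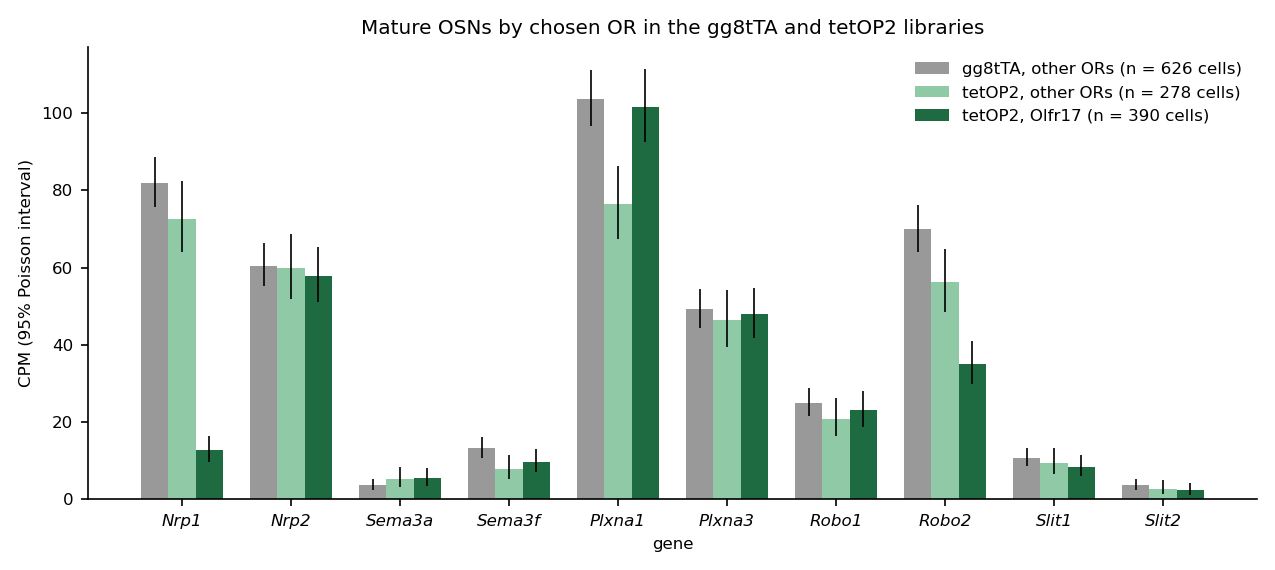
CPM (y axis, from 0) of the 10 genes in mature OSNs of the gg8tTA library with ORs other than *Olfr17* (n = 626 cells) and of the tetOP2 library with another OR (n = 278) or with *Olfr17* (n = 390). Bars are sums over cells with exact Poisson 95% intervals; *Nrp1* is at 81.9, 72.7 and 12.7 CPM.

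The ligands were also read in the cells that could present them. All cells were clustered and clusters named by fixed markers, so names mean resemblance. *Slit2* was highest in mesenchyme-like cells (882 cells), at 72.5 CPM (exact Poisson interval 67.9 to 77.3, 54.6 to 137 over libraries), next to 66 CPM in microvillar-like cells (33.8 to 96.7). These neighbours overlapped between libraries. In the swap and control libraries the mesenchyme-like class was a single cluster of 373 cells, led by bone matrix genes such as *Bglap*, *Spp1* and *Col1a1*. In the gg8tTA and tetOP2 libraries 170 of its cells lay in a cluster led by *Bglap* and *Bglap2*. Most cells of the mesenchyme-like class, read for *Nrp2* below as well, thus came from bone-led clusters. In ensheathing glia-like cells (507 cells), which wrap OSN axons, *Slit2* was at 21.1 CPM, with 36.3, 4.09 and 31.8 in the 3 clusters of that name, the first of them shallow. *Sema3a* and *Sema3f* were at 1.46 CPM each in these glia-like cells, from 5 UMIs each.

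*Sema3a* was highest in microvillar-like cells at 127 CPM (82.0 to 185 over libraries), above immediate neuronal precursor-like cells at 44.4 (28.9 to 63.3) in every library and sustentacular-like cells at 37.5 (23.2 to 47.2). The microvillar-like class held clusters led by *Coch* and *Ascl3*, while clusters with *Trpm5* among their leading genes stayed unnamed. With coarser clusters, where *Trpm5* cells of swap and control joined it, the class was at 96.1 CPM for *Sema3a* and 49.5 for *Slit2*. Sustentacular-like cells held 42.5% of all *Sema3a* UMIs, 42.1% of those of *Robo1* and 33.7% of those of *Slit2*, while mesenchyme-like cells held 23.7% of *Slit2* UMIs. These shares also depend on how many cells of each kind were captured and how deep they were. Of the 23955 cells kept, 3108 were sustentacular-like and 882 mesenchyme-like. *Sema3f* was highest in endothelial-like cells at 65.3 CPM and horizontal basal-like cells at 52.7, with library ranges of 44.5 to 83.9 and 38.8 to 68.0 that overlapped. Endothelial-like cells numbered 153, and their range covers only the 3 libraries with at least 20 of them. *Slit1* was found in OSNs, at 12.0 CPM in mature and 11.6 in immature OSN-like cells, and at 3.18 in the next class.

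The receptors divided between neurons and other cells. *Plxna1* (91.4 CPM in mature, 71.1 in immature OSN-like cells), *Plxna3* (49.0 and 21.1) and *Robo2* (88.1 and 77.7) were highest in OSNs. *Nrp1*, also a vascular receptor, was at 672 CPM in endothelial-like, 219 in immature OSN-like and 211 in macrophage-like cells. *Nrp2* was at 272 CPM in mesenchyme-like and 240 in endothelial-like cells, against 103 in immature OSN-like cells. *Robo1* was highest in sustentacular-like cells at 75.1 CPM (31.7 to 108 over libraries) and globose basal-like cells at 58.8 (35.2 to 113), which overlapped. Of 226 cells that scored highest for pericyte and smooth muscle markers, 208 lay in a cluster led by *Acta2* and *Tagln* together with fibroblast genes such as *Inmt* and *Mgp*, so this class is given no cell type name and its levels stand only in the plot of classes. The class with the highest level was the same for 9 of the 10 genes with coarser clusters, the exception being *Slit1*, which moved from mature to immature OSN-like cells.

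**Figure D5:**
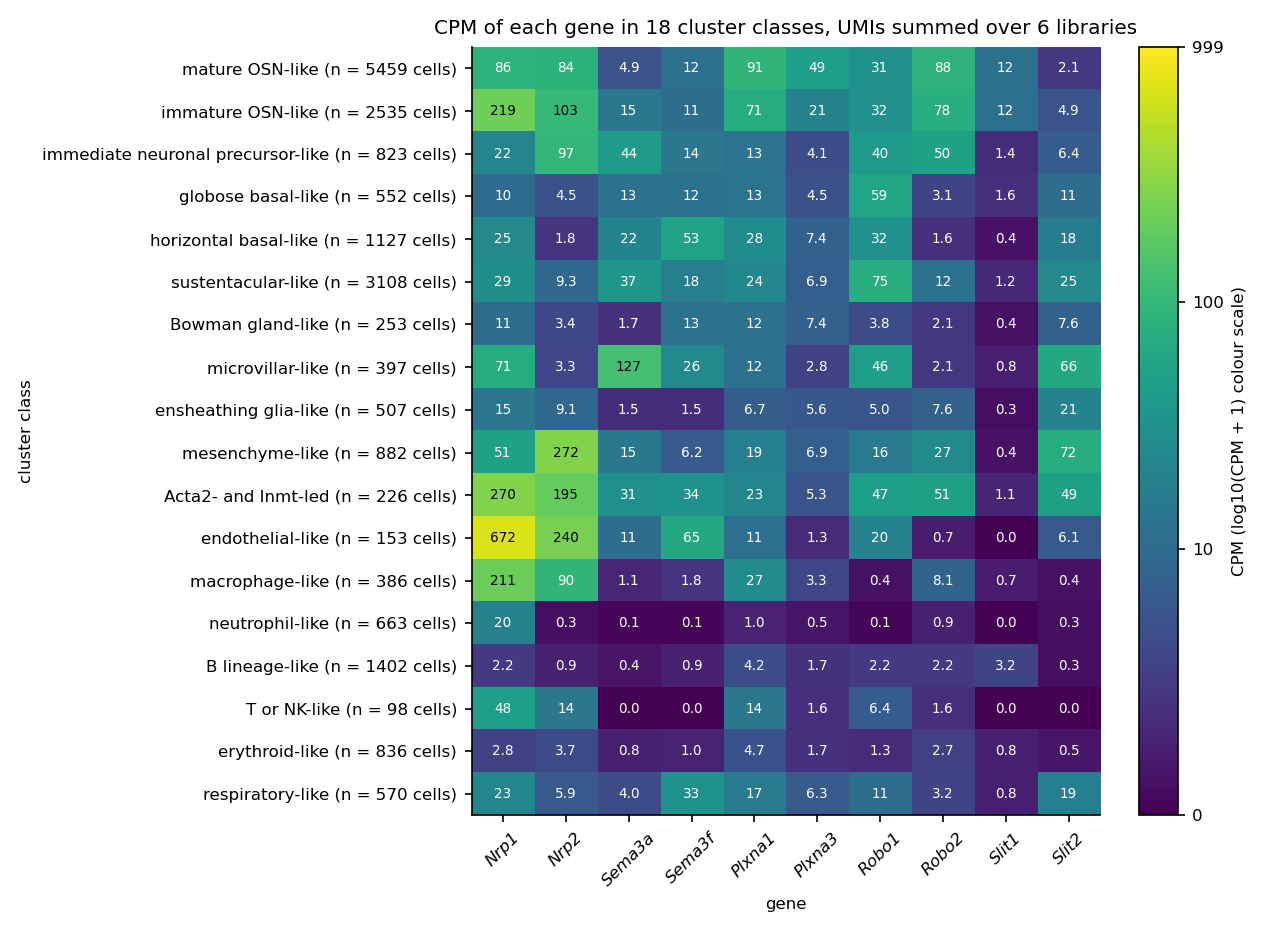
CPM of each gene (columns) in each of 18 classes of clusters (rows, named by markers except the one led by *Acta2* and *Inmt*), from UMIs summed over the 6 libraries, printed in the fields and colored on a log10(CPM + 1) scale, with n cells per class. *Slit2* is highest in mesenchyme-like, *Sema3a* in microvillar-like and *Nrp1* in endothelial-like cells, while *Plxna3*, *Plxna1* and *Robo2* are highest in OSN-like cells.

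The genes whose profiles were most like the members were ranked by Pearson's r of log2(CPM + 1) over 92 points, 1 per class and library with at least 20 cells, which share libraries and depth. For *Robo2* they were *Kalrn* (0.84), *Palm2* (0.84) and *Tub* (0.83), for *Plxna3* *Celf4* (0.82), *Nxph3* (0.81) and *Sult1d1* (0.79), and for *Plxna1* *Tshz2* (0.80), *Gnao1* (0.77) and *Osbpl5* (0.77). The receptor *Robo1* was the gene most like the ligand *Sema3a* (0.84), followed by *Zfp503* (0.81) and *C630043F03Rik* (0.81), and *Robo1* itself was most like *Mark1* (0.91), *Setbp1* (0.91) and *Pik3r3* (0.88). For *Nrp1* they were *Anxa5* (0.73), *Rap2a* (0.73) and *Adam15* (0.72), and for *Nrp2* they were *Nav1* (0.81), *Nav3* (0.78) and *Mmp2* (0.76). *Sema3f* was most like *Itga3* (0.83), *Tob1* (0.82) and *Nfib* (0.82), *Slit1* most like *Cplx2* (0.79), *Pnmal1* (0.79) and *Kcnh4* (0.78), and *Slit2* most like *Zfhx4* (0.89), the netrin receptor *Neo1* (0.86) and *Fermt2* (0.86).

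The swap of HP1 proteins was compared with control at both stages. None of the 10 genes was called in mature OSNs, where 0% of 13636 genes were called (0 by edgeR with 331 at an unadjusted p under 0.05, and 212 by DESeq2), nor in immature OSNs, where 0% of 12682 were (0 by edgeR with 269 at an unadjusted p under 0.05, and 129 by DESeq2). *Cbx1* itself, at a log2 fold change of −5.62 in mature OSNs and with no overlap between the groups, had an adjusted p of 0.188. No member was called by DESeq2 or in any other alternative, although leaving out control replicate 2 gave 510 called genes and leaving out control replicate 1 gave 225 in mature OSNs. *Nrp2* was at 94.0 and 86.0 CPM in swap and 85.1 and 79.5 in control mature OSNs, a log2 fold change of 0.09 (SE 0.21). *Slit1* was at 12.7 and 13.3 against 9.70 and 11.3 (0.27, SE 0.28). In both genes the swap libraries lay above the controls, as 18% of all genes tested were separated in either direction. In immature OSNs *Plxna1* was the 1 member separated, at 76.2 and 71.7 against 50.2 and 56.9 CPM (0.47, SE 0.20, unadjusted p = 0.0664 by edgeR), beside 18.6% of all genes.

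Library pairs with the same replicate number gave unlike ratios for several members. In mature OSNs swap over control was 2.70 in replicate 1 and 1.04 in replicate 2 for *Sema3a*, and 1.95 and 0.705 for *Slit2*, and in immature OSNs it was 1.52 and 1.26 for *Plxna1*. Both replicate 2 libraries had more UMIs of long genes than replicate 1. For genes over 300 kb the median log2 ratio of replicate 2 to replicate 1 in mature OSNs was 0.28 in swap and 0.51 in control, against −0.19 and −0.07 for genes under 10 kb, and for *Robo1* it was 0.70 and 1.00.

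The *Nqo1* difference was also compared between genotypes. *Robo2* was 1.69 and 1.63 times higher in the *Nqo1*-positive class of swap replicates 1 and 2, and 2.28 and 2.00 times in control, an interaction of −0.41 (SE 0.10) with an unadjusted p of 0.00803 that did not pass adjustment (0.385 by edgeR). For *Nrp2* the interaction was −0.27 (SE 0.15, adjusted p = 0.663), and none of the 10 genes was called where 0.17% of 12952 were. Of those 12952 genes, 1163 had an unadjusted p under 0.05 for the interaction by edgeR. Of the mature OSNs, 40.0% and 40.5% were *Nqo1*-positive in swap and 35.9% and 35.6% in control, a difference of 4.53 points. In an exact permutation test of 2 against 2 libraries this gave p = 0.33, two-sided, the smallest value the test allows.

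Other genes of axon guidance were read from a list of 81. Of these, 55 were tested between stages and 35 called (63.6%, beside 34.9% of all genes), 24 lower and 11 higher in mature OSNs. The 5 lower ones with the smallest adjusted p were *Dpysl3* (−3.98), *Dpysl5* (−1.86) and *Crmp1* (−1.60), which encode collapsin response proteins that act downstream of semaphorins in growth cones, the kinase *Fyn* (−2.26) and the plexin *Plxnb2* (−0.96). The 5 higher ones were the ephrin *Efna5* (1.59), its receptor *Epha5* (3.38), the semaphorin *Sema7a* (2.08), the netrin receptor *Unc5b* (1.17) and *Srgap2* (2.03), which encodes a partner of Robo receptors. The median log2 fold change of the list was −0.21, beside −0.03 over all genes tested. By *Nqo1* in mature OSNs 7 of 47 tested were called (14.9%, beside 5.34% of all genes). *Dpysl4* (0.81), *Efnb1* (0.95), *Efnb2* (1.26) and the netrin *Ntn1* (1.33) were higher in *Nqo1*-positive cells, and *Sema3e* (−1.04), *Sema6d* (−1.15) and *Plxnb3* (−4.07) were lower. In immature OSNs 6 of 42 were called (14.3%, beside 5.99% of all genes), named here after their values were seen, with *Dpysl4* (1.25), *Efnb1* (0.92), *Epha5* (0.62) and *Sema4g* (0.61) higher and *Efna4* (−1.55) and *Cntn2* (−0.98) lower. None of the 54 and 55 list genes tested was called between swap and control in mature and immature OSNs, beside 0% of all 13636 and 12682 genes tested by edgeR.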

How the data were processed

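The authors deposited counts, that is UMIs per gene and cell barcode without normalization, made with Cell Ranger 3.1.0 (mm10, introns included, as the submitters' notes and the study's methods give it) from 10x libraries of whole main olfactory epithelium, while the series' design text speaks of sorted cells. Every library was 1 sample, and UMIs of a class of cells were summed per library. Sums were tested with edgeR 4.0.16 (R 4.3.3; quasi-likelihood, TMM, filterByExpr), with the library as a block for classes within libraries. DESeq2 1.42.0 was an alternative. Each SE of a log2 fold change was derived from the edgeR p-value and is no separate estimate of precision. The tests were also run on simulated counts with known changes. Those counts held no effect of library, replicate or gene length, so they do not show how the tests perform on these libraries. Cells were clustered in scanpy 1.11.5 (Leiden, resolution 1.5), swap and control libraries apart from the others. The chosen OR of a mature OSN was its OR with the most UMIs, and cells with ties were left out. Predicted doublets, 53 to 207 per library, were left out.

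Intervals for sums are exact Poisson and for shares exact Clopper-Pearson intervals at 95%, while 3 counts stand for the upper limit where none was seen. They cover counting error only. Each of the 10 genes was named, with, for chosen ORs, the 3 highest and 3 lowest in *Nrp1*, the 3 genes most like each member, and up to 5 called genes per direction with the smallest adjusted p from the list of other guidance genes. Members, lists and gates were chosen with earlier results of these data known. Part of the genotype labels is not reported here.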

Additional observations from a re-analysis of the deposited data

How the results depend on the processing

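The alternatives were another test (DESeq2), another scaling or filter, other cell minimums and gates, leaving out each library, the replicate number as a block, and cells inside OSN-like clusters, the last chosen after seeing the data. *Nrp2* kept its call by *Nqo1* in every alternative (−2.98 to −2.20 in mature, −2.69 to −1.92 in immature OSNs), as did *Robo2* in mature OSNs (0.81 to 1.03), and *Nrp1*, *Plxna3* and *Sema3a* between stages. Uncalled changes of sign included *Robo2* between stages, −0.02 with swap and control only and −0.08 with *Omp* from 3 UMIs, where *Slit2* was at 0.00. Between genotypes only some of the members were followed through the alternatives. *Nrp2* between genotypes in mature OSNs was −0.01 with doublets kept and −0.04 to 0.22 when 1 library was left out, where *Robo2* was −0.13 to 0.35 and *Sema3f* by *Nqo1* in immature OSNs −0.01 to 0.32. Scaling by library size gave 1861 higher and 2727 lower genes between stages, beside 2193 and 2225.

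By *Nqo1* in mature OSNs 609 genes were called, beside 1274 without a filter and 214 with *Omp* from 3 UMIs. In immature OSNs 621 were called, beside 976 without a filter, 281 with control and gg8tTA only, 368 with *Nqo1* from 1 UMI and 957 from 4. Between genotypes DESeq2 called 212 genes in mature and 129 in immature OSNs, and in immature OSNs 28 were called without a filter and 27 inside OSN-like clusters. Leaving out 1 library gave 0 to 510 in mature and 56 to 169 in immature OSNs. For the interaction, 22 genes were called, beside 11 with DESeq2, 34 with library size, 73 without a filter, 3 with doublets kept, 3 with *Nqo1* from 1 UMI, 58 from 4, 42 inside OSN-like clusters and 63 to 134 when 1 library was left out. The cause was not tested. With the replicate block 0 genes were called at either stage, and the deviations of same-numbered libraries had a correlation of 0.253 in mature and 0.189 in immature OSNs, over 2 pairs, too few to show pairing. Members under about 10 CPM rested on few UMIs, which limits *Slit1*, *Slit2*, *Sema3a* and *Sema3f*.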
